A study of Mus musculus with 2 samples.

Results

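The Mir17-92 cluster is a run of 6 microRNA (miRNA) genes within 1 noncoding host transcript, Mir17hg, on mouse chromosome 14. Its members, Mir17, Mir18, Mir19a, Mir20a, Mir19b-1 and Mir92-1, were taken by gene symbol as the miRNA genes annotated inside that host, and all 6 were found among the 1973 gene rows of the tables. Small RNAs below 30 nt were sequenced from whole forebrain of healthy B6NCrl mouse embryos at day 15.5. There was 1 group with 2 biological replicates: replicate 1 pooled 78 embryos and replicate 2 pooled 62, of both sexes. There was no treatment, mutant or other condition, so the values below describe levels within this tissue and differences between these 2 libraries. The labels do not say whether the pools shared a litter, a day or a library batch, and part of the spread between them may be technical.

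MiRNAs are cut from hairpin precursors, first by Drosha in the nucleus and then by Dicer in the cytoplasm, and the retained arm guides Argonaute to messenger RNAs that pair with its seed, bases 2 to 8 of the mature strand. The 6 hairpins of Mir17-92 are cut from the same primary transcript, which MYC and E2F factors induce in dividing cells, and the cluster is known as a driver of proliferation and survival in tumours. In the embryonic mouse cortex it is known to help keep radial glia dividing. Its miR-17 and miR-20a arms are known to repress the cell-cycle inhibitor Cdkn1a, and miR-92a the intermediate progenitor factor Eomes, also called Tbr2.

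The arm of each member that is commonly retained is shown here, since the seeds sort the 6 genes into 4 groups. The sequences are those of RefSeq for GRCm38.p6, the genome that mm10 names, printed 5′ to 3′ in order along the host transcript, with the seed in capitals.
miR-17-5p (Mir17): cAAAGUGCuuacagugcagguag
miR-18a-5p (Mir18): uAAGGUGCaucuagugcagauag
miR-19a-3p (Mir19a): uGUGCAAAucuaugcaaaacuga
miR-20a-5p (Mir20a): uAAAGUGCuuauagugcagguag
miR-19b-3p (Mir19b-1): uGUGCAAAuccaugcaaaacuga
miR-92a-3p (Mir92-1): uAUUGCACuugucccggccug

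Mir17 and Mir20a share the seed AAAGUGC, Mir19a and Mir19b-1 share GUGCAAA, and Mir18 (AAGGUGC) and Mir92-1 (AUUGCAC) each stand alone within the cluster. Base differences are given with the first-named miRNA's base, the position from 1 at the 5′ end, and the other miRNA's base. The arm miR-17-5p differed from miR-20a-5p at 2 of 23 positions, C1U and C12U, neither of them in the seed. The seed of miR-17-5p differed from that of miR-18a-5p by A4G. Within the miR-19 pair, miR-19a-3p differed from miR-19b-3p at 1 of 23 positions, U11C, so these arms differ by a single base outside the seed. The suffixes 5p and 3p name the side of the hairpin that an arm comes from, and since the tables count whole genes, reads of either arm fall in the same row.

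The hairpins lay in exon 2 of Mir17hg (chromosome 14, 115042879 to 115046727, plus strand, mm10), a transcript with 2 exons. Together they spanned 836 bases, from 115043671 to 115044506. Mir17 came first (115043671 to 115043754), starting at base 793 of the host, and was followed by Mir18 (115043851 to 115043946) and Mir19a (115044000 to 115044081). Mir20a (115044157 to 115044263), Mir19b-1 (115044305 to 115044391) and Mir92-1 (115044427 to 115044506) closed the run. The gaps between neighbouring hairpins shortened from 96 bases between Mir17 and Mir18 to 35 bases between Mir19b-1 and Mir92-1, with 53, 75 and 41 bases in between, so they did not shorten at each step.

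**Figure D1:**
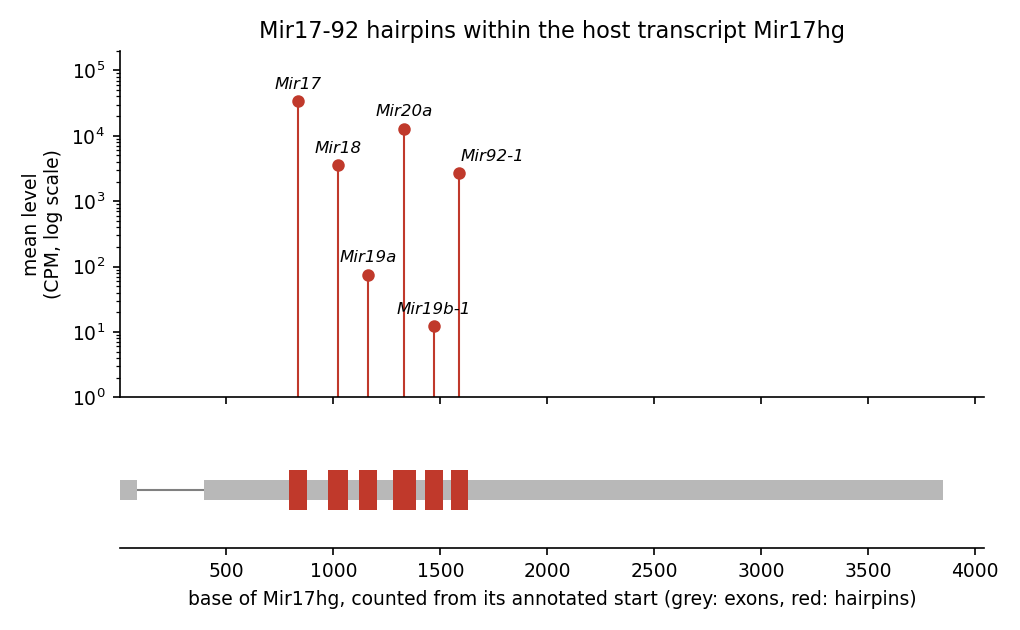
Hairpins of the Mir17-92 cluster along the host transcript Mir17hg (lower panel, x axis in bases from its annotated start; grey bars are the 2 exons and red bars the 6 hairpins) with the mean level of each gene over the 2 libraries (upper panel, CPM on a log axis). Levels did not follow the order of the hairpins: Mir17 and Mir20a stood at 33935 and 12929 CPM, and Mir19a and Mir19b-1, each next to Mir20a, at 74.8 and 12.2 CPM.

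The authors deposited whole-number read counts for each miRNA gene. Levels are given as normalised counts (CPM), the count of a gene scaled so that the gene rows of a library sum to 1000000. Replicate 1 held 4464927 counts in gene rows and replicate 2 held 4753555. They were not divided by length, since the mature arms of the 6 genes are all of 21 to 23 bases. Reads placed at more than 1 locus were in a row of their own and are in none of the levels. They made up 44.6% of the reads of replicate 1 and 42.4% of those of replicate 2. Intervals are 95% Clopper-Pearson intervals, which cover counting error only, since the reads carry no molecular identifiers and may be copies of the same molecule. In bulk tissue, fewer cells of a type and less RNA per cell cannot be told apart.

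The cluster held 5.38% of the counts in gene rows in replicate 1 (interval 5.36 to 5.40) and 5.25% in replicate 2 (interval 5.23 to 5.27). All 6 members were detected, which is to say that both libraries had 10 or more counts. No member had a count on the opposite strand: 0 against 240385 sense counts in replicate 1, which allows a share of up to 0.00125%, and 0 against 249628 in replicate 2, which allows up to 0.0012%. A level of 3 counts, the floor for a gene with none, was 0.672 CPM in replicate 1 and 0.631 CPM in replicate 2, below every member.

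The AAAGUGC pair made up most of the cluster's reads placed at 1 locus. Mir17 had 153399 counts in replicate 1 and 159309 in replicate 2, or 34356 and 33514 CPM, a mean of 33935 ± 596 CPM (SD, n = 2). It ranked 6 among all gene rows by mean level. Mir20a had 60659 and 58339 counts, or 13586 and 12273 CPM, a mean of 12929 ± 928 CPM (SD, n = 2) and rank 17. Mir17 and Mir20a together took 89.0% of the cluster's counts in replicate 1 and 87.2% in replicate 2. The cluster's counts leave out reads of miR-19b-3p and miR-92a-3p that also match another locus, so this share is uncertain. The ratio of Mir17 to Mir20a, which does not depend on how the libraries are scaled, was 2.53 in replicate 1 (interval 2.51 to 2.55) and 2.73 in replicate 2 (interval 2.71 to 2.76). The hairpin with the higher count was thus the same in both libraries, and the ratios differed by more than counting error.

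Mir18, whose mature arm is known to repress the matrix protein gene Ctgf, had 15808 counts in replicate 1 and 17109 in replicate 2. Its levels of 3540 and 3599 CPM gave a mean of 3570 ± 41.5 CPM (SD, n = 2), rank 46, and it had the smallest coefficient of variation among the 6 members, 1.16%. Mir92-1 had 10187 and 14398 counts, or 2282 and 3029 CPM, a mean of 2655 ± 528 CPM (SD, n = 2) and rank 57. Among reads placed at 1 locus, both stood between the AAAGUGC pair and the GUGCAAA pair in each library. Mir18 was above Mir92-1 by 1.55 times in replicate 1 (interval 1.51 to 1.59) and 1.19 times in replicate 2 (interval 1.16 to 1.21). The row of Mir92-1 leaves out reads that also match Mir92-2, so its level, its rank and these ratios are uncertain.

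The GUGCAAA pair was the lowest among reads placed at 1 locus, which leave out reads matching both Mir19b-1 and Mir19b-2. Mir19a had 289 counts in replicate 1 and 403 in replicate 2, or 64.7 CPM (interval 57.5 to 72.6) and 84.8 CPM (interval 76.7 to 93.5), a mean of 74.8 ± 14.2 CPM (SD, n = 2) and rank 209. Mir19b-1 had 43 and 70 counts, or 9.63 CPM (interval 6.97 to 13.0) and 14.7 CPM (interval 11.5 to 18.6), a mean of 12.2 ± 3.60 CPM (SD, n = 2) and rank 294. Together the miR-19 genes took 0.138% of the cluster's counts in replicate 1 and 0.189% in replicate 2. Mir19a exceeded Mir19b-1 by 6.72 times in replicate 1 (interval 4.87 to 9.49) and 5.76 times in replicate 2 (interval 4.46 to 7.53), a difference between the ratios that lies within counting error.

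The order of levels, Mir17, Mir20a, Mir18, Mir92-1, Mir19a and Mir19b-1, was the same in both libraries, among reads placed at 1 locus. Each neighbouring pair in this order differed in mean by more than the SD of either gene, and no pair overlapped. The narrowest step in CPM relative to its spread was that from Mir18 down to Mir92-1, a mean difference of 915 CPM beside an SD of 528 CPM for Mir92-1. The widest step was that from Mir92-1 down to Mir19a, 35.2-fold in replicate 1 and 35.7-fold in replicate 2. From Mir17 to Mir19b-1 the levels ran over 3567-fold in replicate 1 and 2276-fold in replicate 2.

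**Figure D2:**
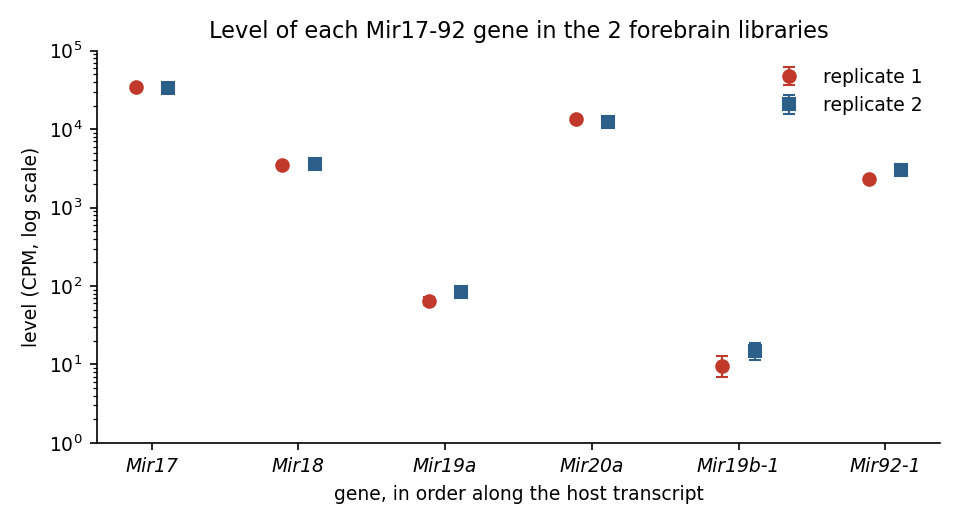
Level of each Mir17-92 gene (x axis, in order along the host) in replicate 1 (red circles) and replicate 2 (blue squares), in CPM on a log axis; bars are 95% Clopper-Pearson intervals of counting error and are hidden by the symbols for the more abundant genes. Mir17 stood highest at 34356 and 33514 CPM and Mir19b-1 lowest at 9.63 and 14.7 CPM, and no 2 genes overlapped. Levels are of reads placed at 1 locus, so those of Mir19b-1 and Mir92-1 are uncertain.

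Among reads placed at 1 locus, Mir17 took 63.81% of the cluster's counts in replicate 1 and 63.82% in replicate 2. Mir18 took 6.58% and 6.85%. Mir20a took 25.2% in replicate 1 (interval 25.1 to 25.4) and 23.4% in replicate 2 (interval 23.2 to 23.5). Mir92-1 took 4.24% (interval 4.16 to 4.32) and 5.77% (interval 5.68 to 5.86). The share of Mir20a was thus 1.86 percentage points lower in replicate 2 and that of Mir92-1 was 1.53 points higher, while the share of Mir17 was the same within counting error. With 1 group, these differences have no replicate check.

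Some arms of the cluster cannot be placed at 1 locus by their sequence. Among 1005 hairpins of the RefSeq table, searched on both strands, 2 of the 11 mature arms of the cluster recurred exactly in another hairpin: miR-19b-3p in Mir19b-2 and miR-92a-3p in Mir92-2, both on chromosome X. These pairs of hairpins are shown because their shared run sets which reads could be assigned. Capitals mark the longest run that the hairpins of a pair share.
Mir19b-1: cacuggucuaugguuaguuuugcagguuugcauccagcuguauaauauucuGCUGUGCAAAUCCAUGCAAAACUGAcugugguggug
Mir19b-2: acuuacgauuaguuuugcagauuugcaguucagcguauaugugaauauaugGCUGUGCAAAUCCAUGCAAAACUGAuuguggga
Mir92-1: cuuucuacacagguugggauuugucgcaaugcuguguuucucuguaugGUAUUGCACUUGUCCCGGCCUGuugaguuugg
Mir92-2: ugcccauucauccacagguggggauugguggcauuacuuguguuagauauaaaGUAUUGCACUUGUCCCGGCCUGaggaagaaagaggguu

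In the miR-19b pair (Mir19b-1 on chromosome 14, 115044305 to 115044391, plus strand, and Mir19b-2 on chromosome X, 52741983 to 52742066, minus strand) the shared run was 25 bases. It began 2 bases before the 23-base mature arm and ended with it. In the miR-92a pair (Mir92-1 at 115044427 to 115044506, and Mir92-2 on chromosome X, 52741838 to 52741928, minus strand) the run was 22 bases, began 1 base before the 21-base arm and also ended with it. The next base was C in Mir19b-1 and U in Mir19b-2, and U in Mir92-1 and A in Mir92-2. A read that ends within the shared run matches both hairpins of its pair equally, and one that runs past it does not. Mir19b-1 and Mir92-1 are therefore uncertain in level: their rows hold only reads placed at 1 locus, and the number of reads in the multi-mapping row that came from them was not measured.

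The other 4 members had no arm with an exact copy in another hairpin of that table. The longest exact run that miR-17-5p shared with another gene's hairpin was 13 bases (Mir106a), and its nearest mature miRNA was miR-106a-5p, which differed by U10A alone. The nearest to miR-18a-5p was miR-18b-5p, with A18U and A20U. The nearest to miR-19a-3p was miR-19b-3p, 1 base away, and its longest run shared with another hairpin was 12 bases. The part of such near copies in the counts was not tested, since the sources used here do not give the aligner's rule for mismatches. Of the 2 lowest members, Mir19b-1 had an exact copy of its retained arm elsewhere and Mir19a had none. Mir92-1, which also had one, stood at 2655 CPM among reads placed at 1 locus. The part of exact copies in the levels of these genes was not tested.

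The mouse genome holds paralogs of the cluster on chromosome X (Mir106a-363) and chromosome 5 (Mir106b-25, in the gene Mcm7). Among reads placed at 1 locus, the Mir17-92 cluster outweighed both. It held a mean of 5.32% of the counts, against 0.0894% for the 6 genes of Mir106a-363 and 2.85% for the 3 genes of Mir106b-25. Mir17 exceeded Mir106a by 104-fold in replicate 1 (interval 99.3 to 110) and 95.6-fold in replicate 2 (interval 91.1 to 100). Mir18 exceeded Mir18b by 127-fold in replicate 1 and 136-fold in replicate 2, and Mir20a exceeded Mir20b by 64.6-fold and 58.0-fold. These genes carry no exact copy of each other's arms.

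For the pairs with an identical arm the ratios were smaller. Mir92-1 exceeded Mir92-2 by 24.2-fold in replicate 1 (interval 21.9 to 26.7) and 27.9-fold in replicate 2 (interval 25.5 to 30.5). Mir19b-1 exceeded Mir19b-2 by 3.91-fold (interval 1.98 to 8.41) and 2.92-fold (interval 1.81 to 4.85). Reads matching both hairpins of such a pair are left out, so these ratios are uncertain. In all 5 pairs the chromosome 14 gene was the higher in both libraries among reads placed at 1 locus. Mir363, the sixth gene of the chromosome X cluster, has no counterpart on chromosome 14 and stood at 211 ± 31.9 CPM (SD, n = 2).

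**Figure D3:**
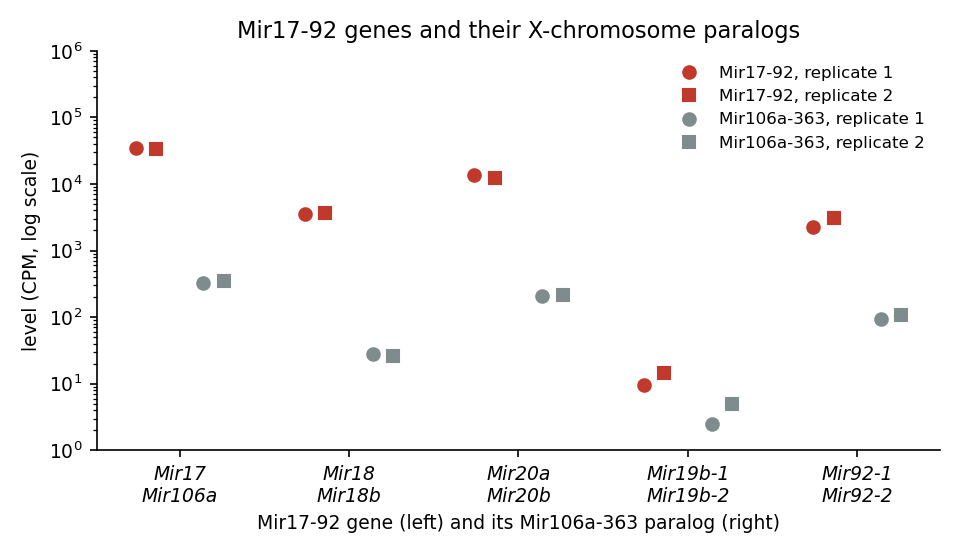
Level of 5 Mir17-92 genes (red) and of their Mir106a-363 paralogs (grey) in replicate 1 (circles) and replicate 2 (squares), in CPM on a log axis. The Mir17-92 gene of each pair was the higher in both libraries, by 104-fold and 95.6-fold for Mir17 over Mir106a and by 3.91-fold and 2.92-fold for Mir19b-1 over Mir19b-2. Reads matching both Mir19b-1 and Mir19b-2, or both Mir92-1 and Mir92-2, are left out, so the ratios of these pairs are uncertain.

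Set against all genes whose mature miRNA carries the same seed, the cluster took a different part of each seed group. The retained arms of the other detected genes with a sequence of their own are shown for the AAAGUGC and AUUGCAC groups, where the cluster did not hold nearly all of the counts.
miR-93-5p (Mir93, chromosome 5): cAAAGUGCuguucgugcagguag
miR-106b-5p (Mir106b, chromosome 5): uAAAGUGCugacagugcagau
miR-106a-5p (Mir106a, chromosome X): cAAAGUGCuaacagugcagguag
miR-20b-5p (Mir20b, chromosome X): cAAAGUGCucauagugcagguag
miR-92b-3p (Mir92b, chromosome 3): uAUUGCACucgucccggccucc
miR-25-3p (Mir25, chromosome 5): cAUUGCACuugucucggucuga
miR-363-3p (Mir363, chromosome X): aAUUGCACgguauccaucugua
miR-32-5p (Mir32, chromosome 4): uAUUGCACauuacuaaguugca

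The AAAGUGC group held 7 genes with a row and summed to 75273 ± 2125 CPM (SD, n = 2). Mir17 and Mir20a made up 62.4% of it in replicate 1 and 62.1% in replicate 2. The next were Mir93 at 18609 ± 627 CPM and Mir106b at 9249 ± 9.59 CPM, both of the Mir106b-25 cluster, and Mir6383 had no counts. Mir17 exceeded Mir93 by 1.80-fold in replicate 1 and 1.84-fold in replicate 2, and Mir20a exceeded Mir106b by 1.47-fold and 1.33-fold. From miR-17-5p to miR-93-5p there were 4 differences, U10G, A11U, C12U and A13C, all between the seed and the 3′ end.

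Mir18 made up 99.2% of the AAGGUGC group in replicate 1 and 99.3% in replicate 2, with Mir18b as the other gene. Of the counted reads, Mir19a and Mir19b-1 made up 96.8% and 95.2% of the GUGCAAA group, whose other gene was Mir19b-2. That group summed to 90.7 ± 19.6 CPM (SD, n = 2). Reads matching both Mir19b-1 and Mir19b-2 are left out, so its shares and sum are uncertain. In the AUUGCAC group, Mir92-1 was not the highest gene among reads placed at 1 locus. Its row leaves out reads that also match Mir92-2, so its share of the group is uncertain. Of the counted reads it made up 27.5% in replicate 1 (interval 27.1 to 28.0) and 29.2% in replicate 2 (interval 28.8 to 29.6), below Mir92b, a single-gene locus on chromosome 3, at 5547 ± 814 CPM (SD, n = 2). The arm miR-92a-3p differed from miR-92b-3p by U10C and G21C over the 21 positions compared. Mir25 followed at 606 ± 59.7 CPM, and Mir367 had 0 counts in replicate 1 and 2 in replicate 2.

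The libraries were compared gene by gene by an exact binomial test (two-sided) on how each gene's summed counts fell between replicate 2 and replicate 1, with Benjamini-Hochberg adjustment over the 457 genes that had at least 10 counts in total. A gene is said to be called where the adjusted p was below 0.05, and log2 ratios are of replicate 2 over replicate 1. The test compares these 2 libraries and covers counting error only. Of the 6 members 4 were called, 2 higher and 2 lower in replicate 2. Over all genes tested, 36.3% were called, 19.3% higher and 17.1% lower in replicate 2. The split depended on scaling. Without Mir99a in the totals 5 members were higher and 1 lower, beside 125 and 56 of the 457 genes tested. With all reads as the totals 2 members were higher and 3 lower, beside 68 and 109 of the 457. Among genes with at least 10000 counts over both libraries, as for Mir17, Mir20a, Mir18 and Mir92-1, 76.2% were called, so a call at that depth says little of the size of a difference.

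Among reads placed at 1 locus, replicate 2 had more Mir92-1, by 0.41 on the log2 scale (adjusted p = 4.52e-106 by the exact binomial test). The rows of Mir92-1 and Mir19b-1 leave out reads that also match a chromosome X hairpin, so their ratios are uncertain. Mir19a was also higher in replicate 2, by 0.39 (adjusted p = 0.00172 by the exact binomial test). For Mir20a the log2 ratio was -0.15, lower in replicate 2 (adjusted p = 1.62e-67 by the exact binomial test). These 3 calls held with edgeR's TMM scaling, with DESeq2 size factors, with Mir99a left out of the total and with all reads as the total. For Mir17 it was -0.036 (adjusted p = 2.53e-11 by the exact binomial test), a direction that turned to 0.024 with the counts of Mir99a taken out of the library totals. Mir99a, the most abundant gene, took 28.2% of gene counts in replicate 1 and 31.1% in replicate 2. Mir18 was not called, at 0.024 (adjusted p = 0.259 by the exact binomial test). Neither was Mir19b-1, at 0.61 (adjusted p = 0.0779 by the exact binomial test), on 43 counts in replicate 1 and 70 in replicate 2. With Mir99a left out of the total, Mir18 was called higher by 0.083 and Mir19b-1 by 0.67. With all reads as the total, Mir18 was called lower, at -0.041 (adjusted p = 0.0287 by the exact binomial test).

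The sizes were set beside those of other genes. Over the 370 detected genes the median absolute log2 ratio was 0.19, and the median over the 6 members was 0.27. Larger absolute ratios than that of Mir17 were found in 87.6% of detected genes, and for Mir18 in 92.4%. For Mir19b-1, the member with the largest ratio, it was 13.0%. For Mir92-1, whose ratio was measured at a far greater depth, it was 21.9%. The median absolute ratio of genes with at least 10000 counts over both libraries was 0.12, which Mir92-1 and Mir20a exceeded and Mir17 and Mir18 did not. The 90th percentile of these genes was 0.367, which Mir92-1 exceeded and Mir20a, Mir17 and Mir18 did not. The counts of the members, cut from 1 transcript, thus differed between the libraries in both directions among reads placed at 1 locus. The ratio of Mir17 over Mir92-1 in these reads was 15.1 in replicate 1 (interval 14.8 to 15.4) and 11.1 in replicate 2 (interval 10.9 to 11.3). No scaling of the libraries can change this ratio. Reads matching both Mir92-1 and Mir92-2 are left out of it, so it is uncertain as a measure of the 2 genes.

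**Figure D4:**
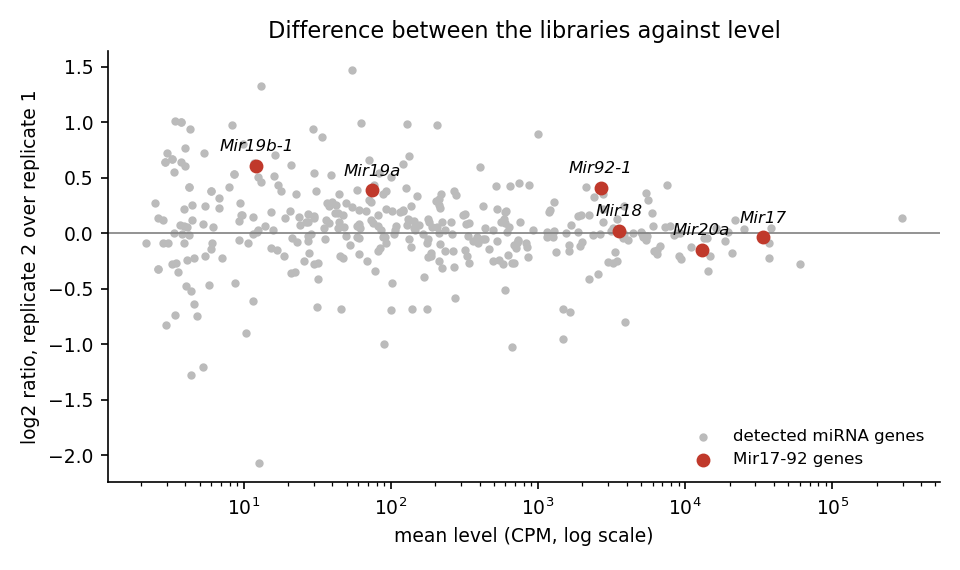
Log2 ratio of replicate 2 over replicate 1 (y axis) against mean level in CPM on a log axis (x axis) for the detected miRNA genes (grey) and the 6 Mir17-92 genes (red). Mir17 (-0.036), Mir18 (0.024) and Mir20a (-0.15) lay near 0, and Mir92-1 (0.41), Mir19a (0.39) and Mir19b-1 (0.61) lay above it. The rows of Mir92-1 and Mir19b-1 leave out reads that also match a chromosome X hairpin, so their ratios are uncertain.

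Among reads placed at 1 locus, genes that share the AUUGCAC seed with Mir92-1 were also higher in replicate 2. Of its 7 genes with a row, 6 were tested and 5 were called, all 5 higher (Mir92-1, Mir92b, Mir25, Mir32 and Mir363), beside 19.3% of all tested genes called in that direction. That share is not matched for depth, and 76.2% of genes with at least 10000 counts over both libraries were called in either direction. Mir92b had 22195 counts in replicate 1 and 29104 in replicate 2, a log2 ratio of 0.30, and Mir363 had 841 and 1110 counts, a ratio of 0.31. Mir32, with 860 and 1093 counts, stood at 0.26 and Mir25, with 2517 and 3081 counts, at 0.20. Mir92-2, at 0.21, was not called (adjusted p = 0.0797 by the exact binomial test). The same 5 genes were called higher under each of the 4 other scalings run, and a 6th, Mir92-2, with Mir99a left out of the total. In the AAAGUGC group, none of the 6 genes tested was called higher and 3 were called lower, Mir17, Mir20a and Mir93. Of all tested genes 17.1% were called lower, and these 3 each had at least 10000 counts, where calls were most common. Mir106b, with 41265 and 43997 counts, was not called. With TMM, DESeq2 size factors or all reads as the total, 4 of the group were called lower and 0 higher. Under these scalings 96, 87 and 109 of the 457 genes tested were called lower. Without Mir99a in the totals 3 of the group were called higher and 1 lower, beside 125 and 56 of the 457 genes tested. The genes of a seed group were set side by side without a test of the group.

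As hairpins, the members were alike in base composition and differed in length. Their GC content ran from 43.7% for Mir19b-1 to 47.5% for Mir92-1, and their lengths from 80 bases for Mir92-1 to 107 for Mir20a. The folding energy predicted by RNAfold ran from -29.2 kcal/mol for Mir18 to -38.7 kcal/mol for Mir19a. Mir17 and Mir19b-1, the highest and the lowest gene among reads placed at 1 locus, had predicted energies of -36.7 and -37.8 kcal/mol. The retained arms differed more, from 34.8% GC in miR-19a-3p and 39.1% in miR-19b-3p to 57.1% in miR-92a-3p, with 47.8% in miR-17-5p and 39.1% in miR-20a-5p. No test of level against GC content was made over these 6 genes.

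The genes nearest to each member in mean log2(CPM + 1) over the 2 libraries, a measure of likeness in level alone, came from other loci. Levels are of reads placed at 1 locus, so the neighbours of Mir19b-1 and Mir92-1 are uncertain. Mir17 stood between Mir335, at 37289 ± 4085 CPM, and Mir130a, at 24922 ± 527 CPM. Mir20a stood between Mir322 (13346 ± 258 CPM) and Mir30a (10980 ± 647 CPM), and Mir18 between Mir449a (3882 ± 1475 CPM) and Mir143 (3459 ± 219 CPM). The neighbours of Mir92-1 were Mir301 (2770 ± 477 CPM) and Mir872 (2621 ± 5.16 CPM). Mir19a stood between Mir410 (75.1 ± 3.58 CPM) and Mir877 (73.0 ± 10.1 CPM), and Mir19b-1 between Mir344c (12.5 ± 3.13 CPM) and Mir193b (13.1 ± 8.01 CPM; all SD, n = 2). For 10 of these 12 neighbours the difference in mean was smaller than the larger of the SDs of the pair, and the exceptions were Mir130a below Mir17 and Mir30a below Mir20a. The mean of Mir193b was above that of Mir19b-1 although its mean log2 level was below, because its libraries were farther apart.

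The label of the tissue was checked against marker miRNAs. Of 11 neural markers, 10 had a row and 7 were detected, and they summed to 20503 CPM in replicate 1 and 20790 CPM in replicate 2, led by Mir137. Mir9-1 had no row. The 3 Mir124a genes and Mir9-2 had 17 counts or fewer in either library. In the same list Mir9-3 had 3338 counts in replicate 1 and 3411 in replicate 2, and Mir128-1 had 9178 and 9261. The part of arm copies at other loci in these marker counts was not tested. Endothelial Mir126a stood at 15856 and 16377 CPM and the 4 mural and mesenchymal markers at a sum of 3434 and 3777 CPM, with Mir199a-1 at 0 and 2 counts. The sums were 140 and 165 CPM for erythroid, 197 and 207 CPM for immune, 55.3 and 46.1 CPM for muscle and 65.6 and 88.6 CPM for liver markers. The part of these cell types in the levels of the cluster was not tested.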

How the data were processed

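Per the labels, the samples were 2 small RNA libraries (below 30 nt) of 1 group. The authors deposited raw read counts for each miRNA gene, on either strand and on each strand, not normalised. Per the deposited README text these came from alignments to mm10 with GENCODE M4; the sources used here do not give the aligner or counter. The first of the strand columns was used as sense. The 4 rows that name no gene were left out of totals: multi-mapping reads (44.6% and 42.4% of reads in replicates 1 and 2), unmapped (14.3% and 18.2%), no feature (3.03% and 3.07%) and ambiguous (0).

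Symbols and coordinates came from GENCODE M21 on the same build, for 1894 of 1973 gene rows, and all 6 members matched. Mature and hairpin sequences came from RefSeq (GRCm38.p6), again for all 6, and ViennaRNA RNAfold 2.7.2 folded the hairpins. CPM, SDs, exact binomial tests and Clopper-Pearson intervals were computed with Python 3.11.15 and SciPy 1.17.1, with 0.5 counts added to each library in log2 ratios. Depth was 4464927 and 4753555 counts. The count test was tested on simulated data that held counting error only, so its behaviour under further spread between libraries was not tested. With 1 group no quasi-likelihood fit was made. Named genes were the 6 members, the 9 genes of the paralog clusters, genes sharing a seed with a retained arm, the nearest genes in level, the most abundant gene and the marker lists. The members and lists were chosen with earlier results of these data known. The alternatives were TMM (edgeR 4.0.16), DESeq2 1.42.0 size factors, other totals, either strand, count minimums of 1 and 100, other added counts and leaving out a replicate.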

Additional observations from a re-analysis of the deposited data

Results flagged for a closer look

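Reads in the multi-mapping row, which no level uses, made up 44.6% of the reads of replicate 1 and 42.4% of those of replicate 2, more than the gene rows held. This row was flagged because it is a large signal outside the measurement. How many of its reads came from Mir19b-1 or Mir92-1, whose retained arms recur exactly on chromosome X, was not measured.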

How the results depend on the processing

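The number of members called between the libraries was 4 and ran from 4 to 6 over the other settings tried. Of the 457 genes tested 166 were called, or 36.3%, and 156 to 181 were called over those settings. The count minimums of 1 and 100, with 156 and 158 calls, changed which genes were tested, so their calls are not of the same total. All 6 members were called without Mir99a in the total, where 181 of the 457 genes tested were called. The cluster's share of counts, 5.32%, was 7.56% without Mir99a in the total and 1.98% of all reads, and lay between 5.25% and 5.38% with either replicate left out. The log2 ratio of Mir17 (-0.036) became 0.024 without Mir99a in the total. That of Mir18 (0.024, not called) became -0.016 with TMM scaling, -0.0036 with DESeq2 size factors and -0.041, where it was called lower, with all reads as the total. In each case the scaling shifted all genes by the same amount, at most 0.064 on the log2 scale. No ratio of the other 4 members changed direction. The test between libraries could not be run with a replicate left out. Depth limits Mir19b-1 most, at 43 and 70 counts.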
